A study of Bos taurus with 11 samples.

Results

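The 28 genes described here encode protein subunits of the small (40S) subunit of the cytosolic ribosome: RPSA, RPS2, RPS3, RPS3A, RPS4X, RPS6, RPS7, RPS9, RPS10, RPS12 to RPS16 with RPS15A, RPS18 to RPS21, RPS23 to RPS29 with RPS27A, and FAU. They were chosen by gene symbol, among 24839 gene names on the array, and every probe that carries such a symbol was taken, 104 in all. All 28 genes had at least 2 probes. The samples were RNA of mononuclear blood cells (PBMCs, chiefly lymphocytes with some monocytes) from female cattle. The first group holds 5 arrays of Ladakhi cattle, adapted to high altitude, and the second 6 arrays of Sahiwal cattle from low-lying arid or semi-arid country. Each array held 1 numbered sample in 1 colour, taken here as 1 animal, and no treatment is named for either group. The p-values below measure only the spread between these samples. Breed, altitude, slide and scanner changed together, so that they cannot be told apart.

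The small subunit binds the mRNA, scans for the start codon and holds the decoding centre, where each codon is paired with its tRNA. Its proteins are made in nearly equal numbers and fold around the 18S rRNA, and an unpaired excess of them is degraded. Their mRNAs are among the most abundant in any cell, carry a pyrimidine tract at the 5′ end (the TOP motif), and are translated under control of the kinase mTOR and the RNA-binding protein LARP1. In resting blood lymphocytes many of these mRNAs are stored untranslated until the cell is activated.

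The Ladakhi arrays were much dimmer than the Sahiwal arrays. Of 43803 spots, 4243 to 6608 lay well above background on a Ladakhi array and 17517 to 20574 on a Sahiwal array. No spot was saturated on a Ladakhi array, and 71 to 228 were on a Sahiwal array. A level below is the log2 of a probe's processed signal relative to the 75th percentile of its array, taken over the 2706 probes that lay well above background on all 11 arrays. A difference is the Ladakhi mean minus the Sahiwal mean of these levels, so that a negative value is lower in Ladakhi relative to the other detected probes. A probe is called measured where 4 or more arrays of Ladakhi and 4 or more of Sahiwal showed it well above background, and the number of arrays limits the precision.

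The small-subunit mRNAs were so bright on the Sahiwal arrays that most of their probes reached the top of the scanner's range. Of the 104 probes, 58 were saturated on at least 1 Sahiwal array, 15 of them on all 6. This was 55.8% of the probes of these genes, against 0.568% of all 43653 probes on the array. Small-subunit and large-subunit ribosomal proteins together made up 137 of the 248 probes saturated anywhere. A saturated spot understates the Sahiwal signal, so that for such a probe a fall in Ladakhi is a lower bound and a rise cannot be read. A further 25 probes, of 15 genes, were measured in both breeds and saturated on no array, and the differences between breeds rest on these. The remaining 21 were unsaturated but not measured in both breeds, and 9 of these lay above background on no array.

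Among these 25 unsaturated probes, 9 were higher in Ladakhi cattle and 3 were lower at an adjusted p of 0.05 (limma, Benjamini-Hochberg over 17868 probes tested). Over all 3805 probes of the same kind 32.2% were called, 18.2% as higher and 14% as lower. The median difference of the 25 was 0.24 on the log2 scale and that of the 3805 was -0.01. The 9 probes that rose belong to 6 genes, RPS4X, RPS9, RPS10, RPS19, RPS21 and RPS26, and lay 1.84 to 4.96 times higher. The 3 that fell belong to RPS15A, RPS24 and RPS25, and lay 6.41 to 22.3 times lower. The breeds did not overlap for 7 of the 25 probes, 5 of them higher and 2 lower, where 21.6% of the 3805 probes had no overlap. The 3 lower probes each lay above background on 4 of the 5 Ladakhi arrays. Among the 19 probes that were above background on all 11 arrays, 9 were called higher and 0 lower, where 26.8% and 13.6% of all 2482 such probes were (limma). The median difference of those 19 was 0.66, and that of the 2482 was 0.17. Without Ladakhi animal 1, 3 or 4 the count of lower probes was 5, and without Sahiwal animal 1, 2 or 3 it was 2. The balance also moved with the scaling: 7 were higher and 8 lower after normexp background correction, and 9 and 5 with the percentile over all probes or the authors' deposited table.

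**Figure D1:**
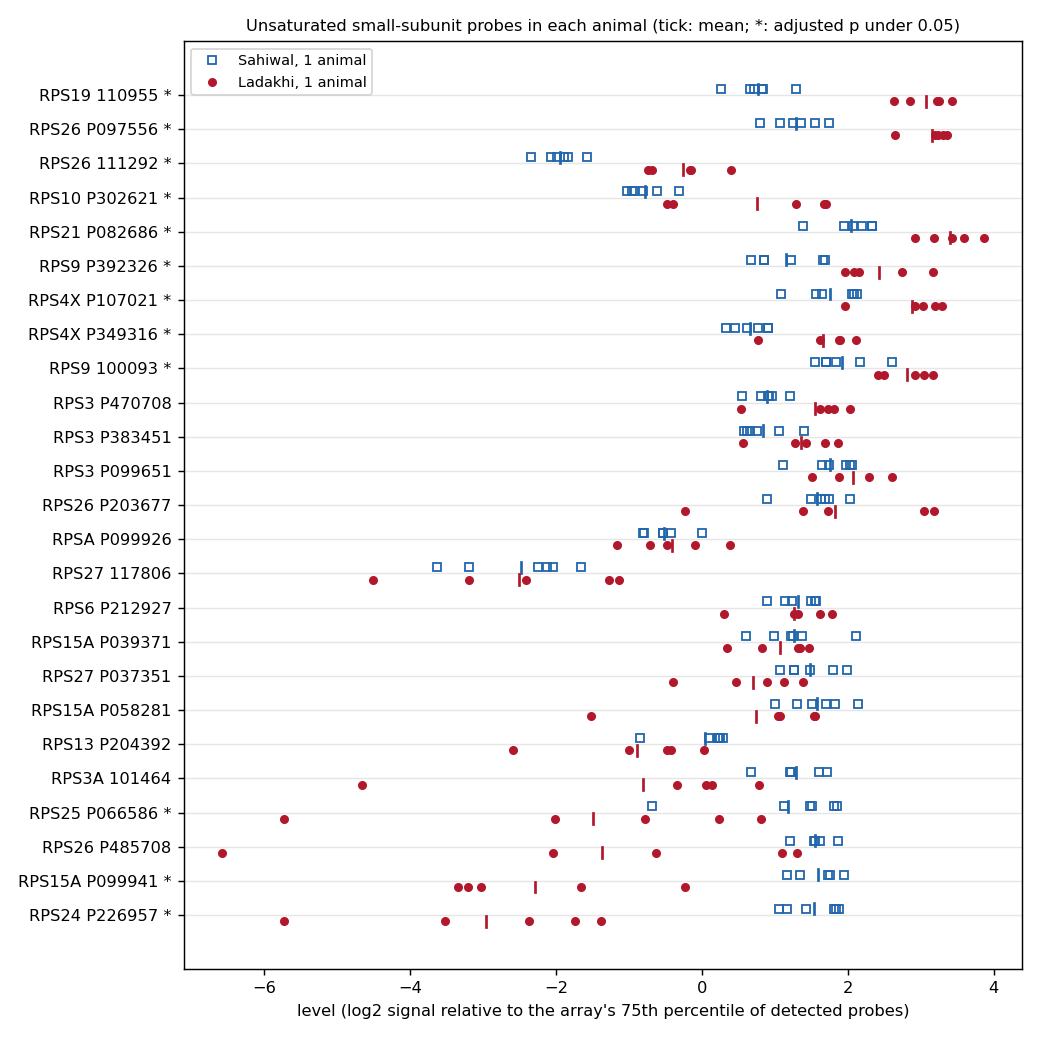
Level of each of the 25 unsaturated probes in every animal, ordered by the difference between breeds, with the horizontal axis in log2 units, filled circles for Ladakhi, open squares for Sahiwal and a tick at each breed's mean. The RPS19 probe at the top has Ladakhi values of 2.63 to 3.43 and Sahiwal values of 0.26 to 1.29, and the RPS24 probe at the bottom has Ladakhi values of -5.73 to -1.39 and Sahiwal values of 1.06 to 1.88.

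RPS19, a protein of the head of the small subunit needed to process the precursor of 18S rRNA and often mutated in Diamond-Blackfan anaemia, gave the largest rise among the 25 probes. Probe A_73_110955 lay at 3.22, 3.43, 2.85, 3.24 and 2.63 in Ladakhi animals 1 to 5. In Sahiwal it ran from 0.26 to 1.29 with a median of 0.77. Every Ladakhi value lay above every Sahiwal value. The means were 3.07 ± 0.32 (SD, n = 5) and 0.76 ± 0.33 (SD, n = 6), a difference of 2.31 ± 0.27 (SE, limma adjusted p = 6.36e-05), or 4.96-fold. The file maps this probe to the minus strand of chromosome 18 (HGSC Btau_3.1, chr18:51093244-51093586), a span of 343 bases for 60 probe bases. It is shown, as are the probes printed below, because the probe sequence decides which stretch of the mRNA each value reports.
RPS19 A_73_110955: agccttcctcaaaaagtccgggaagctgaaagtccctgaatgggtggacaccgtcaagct

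RPS26, which lies at the mRNA exit channel and contacts the bases before the start codon, had 7 probes and values in both directions. Of its 4 unsaturated measured probes, 2 rose, and the other 2 were not called. Probe A_73_111292 lay at -0.16, -0.74, -0.69, -0.14 and 0.40 in Ladakhi animals 1 to 5, against -2.34 to -1.57 (median -1.94) in Sahiwal, with no overlap. Its difference was 1.68 ± 0.28 (SE, limma adjusted p = 0.000611). Probe A_73_P097556 lay at 3.23, 3.30, 2.65, 3.36 and 3.19 in Ladakhi, against 0.79 to 1.74 (median 1.30) in Sahiwal, also with no overlap. Its difference was 1.85 ± 0.27 (SE, limma adjusted p = 0.00025), or 3.61-fold. These 2 probes report separate stretches of the mRNA, on the minus strand at chr5:61847562-61847884 and chr5:61846564-61846623.
RPS26 A_73_111292: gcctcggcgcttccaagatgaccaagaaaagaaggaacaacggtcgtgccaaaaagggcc
RPS26 A_73_P097556: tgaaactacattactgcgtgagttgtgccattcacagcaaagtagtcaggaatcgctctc

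The other RPS26 probes did not follow. Probe A_73_P203677, which shares 24 bases with A_73_P097556, lay at 3.18, 3.05, 1.73, -0.23 and 1.38 in Ladakhi and from 0.89 to 2.03 (median 1.66) in Sahiwal. The Ladakhi values lay on both sides of the Sahiwal range, and the difference was 0.24 ± 0.51 (SE, limma adjusted p = 0.729). Probe A_73_P485708, nearest the 3′ end of the 4, lay at 1.10, 1.30, -6.57, -0.63 and -2.04 in Ladakhi and from 1.20 to 1.86 (median 1.55) in 5 Sahiwal animals. Sahiwal animal 3 is missing from that fit because its spot carried an outlier mark. The SD in Ladakhi was 3.21 (n = 5), and the difference of -2.92 ± 1.14 (SE) missed the threshold (limma adjusted p = 0.053). It passed without Ladakhi animal 1, 2 or 3 (adjusted p = 0.0298, 0.0275 and 0.0431). Another probe, A_73_P202962, which shares 52 bases with A_73_P485708 save 1, was above background on all 6 Sahiwal arrays and on 1 Ladakhi array, and was at least 27.1-fold lower in Ladakhi. Such a bound sets the Sahiwal mean against the higher, on each Ladakhi array, of the probe's own signal and the lowest signal well above background there. The probe entered the fit through the Sahiwal arrays alone, so its bound is given without a test.

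RPS10 and RPS21 also rose. RPS10, which with RPS3 and RPS20 is ubiquitinated by ZNF598 on collided ribosomes, lay at 1.69, 1.67, 1.29, -0.39 and -0.48 in Ladakhi animals 1 to 5 (A_73_P302621, chr23:8764557-8764616). Sahiwal ran from -1.03 to -0.31 with a median of -0.86. Ladakhi animals 4 and 5 lay within the Sahiwal range and the other 3 well above it. The difference was 1.53 ± 0.42 (SE, limma adjusted p = 0.0108). RPS21, a small protein that binds next to RPSA, lay at 3.59, 3.42, 2.92, 3.87 and 3.19 in Ladakhi (A_73_P082686, chr13:55580777-55581205) and from 1.38 to 2.33 (median 2.13) in Sahiwal. All 5 Ladakhi values lay above the Sahiwal range, and the difference was 1.36 ± 0.28 (SE, limma adjusted p = 0.00199). On 1 or more Sahiwal arrays up to 21.5% of the pixels of this RPS21 spot were saturated, although the spot itself was not marked as such.

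RPS9 and RPS4X had 2 unsaturated probes each, and all 4 rose. RPS9, an early-binding protein of the subunit body, lay at 2.74, 3.17, 2.09, 2.15 and 1.96 in Ladakhi on probe A_73_P392326 (chr18:63616280-63616336), against 0.67 to 1.69 (median 1.04) in Sahiwal. These ranges did not overlap, and the difference was 1.26 ± 0.32 (SE, limma adjusted p = 0.00618). The other RPS9 probe, A_73_100093, lay at 3.04, 3.16, 2.49, 2.92 and 2.42 in Ladakhi and from 1.55 to 2.60 (median 1.76) in Sahiwal. Ladakhi animals 3 and 5 lay within that range, and the difference was 0.88 ± 0.28 (SE, limma adjusted p = 0.0217), with up to 38.7% saturated pixels on a Sahiwal array. RPS9 had no other probe.

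RPS4X, encoded on the X chromosome, lay at 3.03, 3.30, 2.92, 3.20 and 1.96 in Ladakhi on probe A_73_P107021 (chrX:47882845-47883482). Sahiwal ran from 1.09 to 2.13 with a median of 1.85. Only Ladakhi animal 5 fell within it, and the difference was 1.12 ± 0.31 (SE, limma adjusted p = 0.0112). Probe A_73_P349316 lay at 1.61, 0.77, 1.88, 2.11 and 1.89 in Ladakhi and from 0.34 to 0.91 (median 0.69) in Sahiwal. Here it was Ladakhi animal 2 that fell within the Sahiwal range, and the difference was 0.99 ± 0.29 (SE, limma adjusted p = 0.0141). Quantile normalization ended the calls of RPS21 and of RPS4X A_73_P107021 (adjusted p = 0.0844 and 0.0781), and normexp those of RPS9 A_73_100093 and RPS4X A_73_P349316 (adjusted p = 0.166 and 0.0578). Leaving out Ladakhi animal 2 also ended that of RPS9 A_73_100093 (adjusted p = 0.0504).

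RPS24, a protein of the subunit body needed for early cleavage of the rRNA precursor, gave the largest fall. Probe A_73_P226957 (chr28:33169075-33169134) lay at -2.37, -1.39, -3.52, -5.73 and -1.74 in Ladakhi animals 1 to 5, the fourth of these not above background. Sahiwal ran from 1.06 to 1.88 with a median of 1.61, so the breeds did not overlap. The difference was -4.48 ± 0.61 (SE, limma adjusted p = 0.000176), and with dim signals raised to the lowest detected one it was -4.28. RPS15A, a conserved protein that binds the central domain of 18S rRNA, fell on 1 of its 3 probes, A_73_P099941 (chr20:3274271-3274330). This probe lay at -0.24, -3.20, -3.34, -3.03 and -1.65 in Ladakhi, of which the second was not above background, and from 1.17 to 1.95 (median 1.72) in 5 Sahiwal animals. Again there was no overlap, and the difference was -3.88 ± 0.53 (SE, limma adjusted p = 0.000227). Sahiwal animal 3 is missing from that fit because of an outlier mark.

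RPS25, which many viral and some cellular mRNAs need to start translation internally, fell on probe A_73_P066586 (chr15:28243264-28243323). It lay at 0.81, -2.01, 0.24, -5.73 and -0.78 in Ladakhi, the fourth not above background, and from -0.68 to 1.85 (median 1.49) in Sahiwal. The ranges overlapped in Ladakhi animals 1 and 3. The difference was -2.68 ± 0.92 (SE, limma adjusted p = 0.0306). This call was lost in 7 of 25 alternatives: under quantile normalization (adjusted p = 0.087), with array weights (adjusted p = 0.0543), in a test against a difference of 1 (adjusted p = 0.313), without Ladakhi animal 2 (adjusted p = 0.0666) and without Sahiwal animal 1, 2 or 3 (adjusted p = 0.0512, 0.0569 and 0.0564). Adjusted over gene means, it was 0.053.

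The other 11 unsaturated probes, besides the 2 of RPS26, did not pass the test. RPS3A had a difference of -2.09 ± 0.80 (SE, limma adjusted p = 0.0507). Ladakhi animal 5 lay at -4.66, not above background, while the other 4 Ladakhi values ran from -0.35 to 0.78. Without that animal the difference was -1.13 and passed the test (adjusted p = 0.0188), as it did without Ladakhi animal 3 or 4 (adjusted p = 0.0485 and 0.032). In all, the RPS3A difference passed in 11 of 25 alternatives. RPS13 had a difference of -0.93 ± 0.42 (SE, adjusted p = 0.0894). RPS27, which binds zinc, had differences of -0.78 (adjusted p = 0.0749) and -0.02 (adjusted p = 0.981) on its 2 probes. The other RPS15A probes were at -0.84 (adjusted p = 0.176) and -0.19 (adjusted p = 0.65). RPS3, which forms part of the mRNA entry site, was at 0.31, 0.52 and 0.66 on 3 probes, the lowest adjusted p being 0.0902. For RPS6, the subunit that the S6 kinases phosphorylate, the difference was -0.06 with a 95% confidence interval of -0.70 to 0.59. For RPSA, also known as the laminin receptor precursor, it was 0.10 with an interval of -0.56 to 0.76. Neither interval excludes a change, and neither shows that the levels were equal.

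Most of the remaining genes could be read only as bounds. On 31 of the 58 saturated probes the Ladakhi mean lay below the Sahiwal mean. Of the 58, 12 probes of 11 genes were called lower (limma). Over the array 56 of the 243 saturated probes measured in both breeds, or 23%, were. RPS18 (A_73_102822), above background on 4 of 5 Ladakhi arrays, was at least 33.4-fold lower (adjusted p of the fitted difference = 5.7e-05). RPS29, a zinc-binding protein of the head, also on 4 Ladakhi arrays, was at least 24.9-fold lower (A_73_P044591, adjusted p = 0.000253), and RPS12 at least 8.61-fold (A_73_P046601, adjusted p = 0.00412). These bounds hold for the named probes only. RPS18 A_73_P291436, which shares 50 bases with A_73_102822, ran from 2.52 to 4.22 in Ladakhi, against -4.62 to -0.24 for A_73_102822. The Ladakhi means of RPS29 A_73_P079456 and RPS12 A_73_P097546 were 4.31 and 3.83. Saturation in Sahiwal leaves the breed differences of these brighter probes without a direction. RPSA (A_73_101007) was at least 5.46-fold lower with an adjusted p of 0.00443. For RPS3A, RPS4X, RPS6 (2 probes), RPS7, RPS19, RPS21 and RPS24 the bounds ran from 1.77-fold to 3.49-fold. Each bound concerns saturation alone. It is a difference between the means of these samples and leaves out the spread between animals. The other 27 saturated probes, among them every saturated probe of RPS10, RPS14, RPS15, RPS27A and RPS28, had a positive fitted difference, which saturation leaves without a direction.

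**Figure D2:**
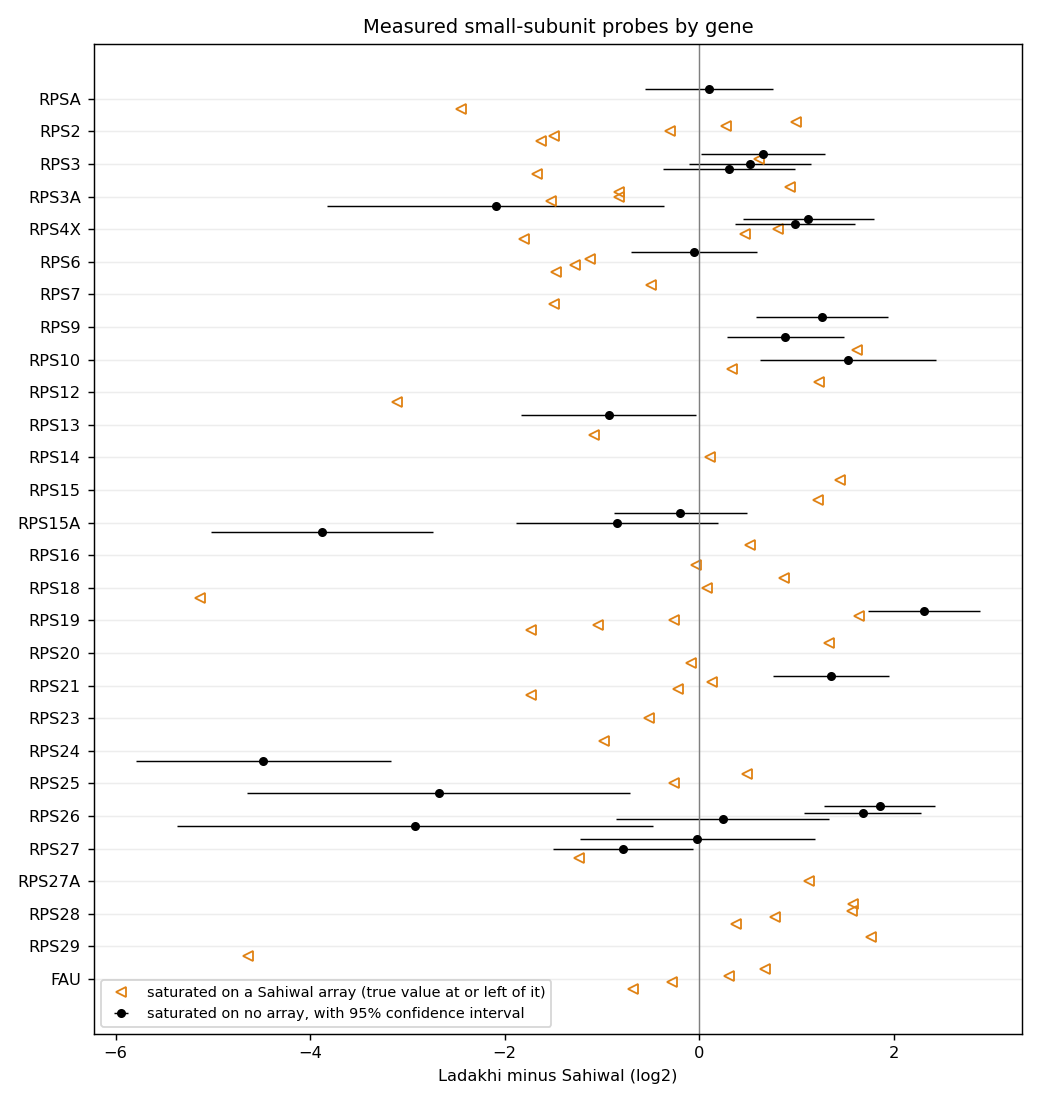
Difference between breeds (horizontal axis, Ladakhi minus Sahiwal, log2) of every measured probe, by gene, with circles and 95% confidence intervals for the 25 unsaturated probes and open triangles for the 58 saturated ones, whose true value lies at or left of the symbol. RPS19, RPS21 and RPS4X each have a circle to the right of 0 and a triangle to its left.

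Of the 12 unsaturated probes above background on some arrays only, 6 had a Sahiwal mean above the Ladakhi detection limit. These lay above background on 0 to 2 Ladakhi arrays. RPS6 had 3 of these: A_73_P096496 and A_73_P090016, on 0 of 5 Ladakhi arrays, were at least 64.7-fold and 18.3-fold lower, and A_73_P494593, on 2 Ladakhi arrays, at least 28.6-fold. Other RPS6 probes did not show falls of that size. A_73_P033381, which shares 51 bases with A_73_P096496 save 1, was above background on 5 Ladakhi arrays. Saturated on 5 Sahiwal arrays, it had a fitted difference of -1.48 (limma adjusted p = 0.161). The measured unsaturated RPS6 probe was at -0.06. RPS23, whose hydroxylated proline lies in the decoding centre, had 2 of the 6: A_73_P094301 was at least 20.2-fold lower and A_73_P049431 at least 2.02-fold. The last is the RPS26 probe given above. All 6 entered the fit only through the group where they are high, so no test stands beside these bounds. The other 6, of RPS12, RPS24, RPS26 and RPS29, lay in Sahiwal below the Ladakhi detection limit and give no fold. RPS2, RPS14, RPS15, RPS16, RPS20, RPS27A, RPS28 and FAU had saturated probes as their only measured ones and none called lower, so nothing can be said of their direction. Of these RPS27A and FAU are made as fusions, with ubiquitin and with a ubiquitin-like protein.

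With bounds taken in, RPS4X, RPS19, RPS21 and RPS26 had probes in both directions. The lower side of such a balance is favoured, since a saturated or dim probe can show only a fall. For RPS19 the unsaturated probe rose 4.96-fold while A_73_P193243, saturated on all 6 Sahiwal arrays, was at least 3.31-fold lower (limma adjusted p = 0.043). For RPS21 the unsaturated probe rose 2.56-fold while A_73_113374 was at least 3.31-fold lower (limma adjusted p = 0.00437). For RPS4X 2 probes rose while A_73_P088301 was at least 3.49-fold lower (limma adjusted p = 0.0333). The 95% confidence intervals of the fitted differences of these saturated RPS19, RPS21 and RPS4X probes reached up to -0.35, -0.87 and -0.45 (log2). The value of a gene therefore depended on the probe, and RPS9 was the only gene with more than 1 unsaturated probe of which all rose and none of its other probes fell.

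The array holds many probes that cover nearly the same stretch of a small-subunit mRNA, and these allow a comparison within an animal. In 29 pairs of probes of 1 gene at least 20 bases were shared, and in 5 pairs both probes were measured and unsaturated. The level of the second probe minus that of the first was compared between breeds with an exact permutation test, two-sided, with p-values adjusted over the 5 pairs. These tests were chosen after the values were seen. RPS15A gave the clearest case: A_73_P058281 and A_73_P099941 are offset by 12 bases and share the 48 bases in capitals.
RPS15A A_73_P058281: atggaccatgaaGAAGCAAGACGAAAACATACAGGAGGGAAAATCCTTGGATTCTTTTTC
RPS15A A_73_P099941: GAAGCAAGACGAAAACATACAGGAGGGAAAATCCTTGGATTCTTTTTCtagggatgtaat

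In Sahiwal these 2 probes stood level, with A_73_P058281 minus A_73_P099941 at -0.12 ± 0.26 (SD, 5 animals, range -0.44 to 0.13). In Ladakhi the same difference was 3.03 ± 1.47 (SD, n = 5, range 1.51 to 4.74). The breeds did not overlap, and the gap between them was 3.15 (exact permutation p = 0.00794, adjusted p = 0.0132). The third RPS15A probe, A_73_P039371, shares 39 bases with A_73_P099941. Its level minus that of A_73_P099941 was 3.36 in Ladakhi and -0.50 in Sahiwal, a gap of 3.86 (exact permutation p = 0.00794, adjusted p = 0.0132). For RPS26, A_73_P097556 minus A_73_P203677 averaged 1.33 ± 1.44 (SD, n = 5) across Ladakhi animals, against -0.29 ± 0.12 (SD, n = 6) across Sahiwal animals, a gap of 1.61 with no overlap (exact permutation p = 0.00433, the smallest 5 against 6 can give, adjusted p = 0.0132). The RPS3 pair with 52 shared bases and the third RPS15A pair with 27 gave gaps of 0.14 and 0.65, which missed the threshold (exact permutation adjusted p = 0.662 and 0.509).

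**Figure D3:**
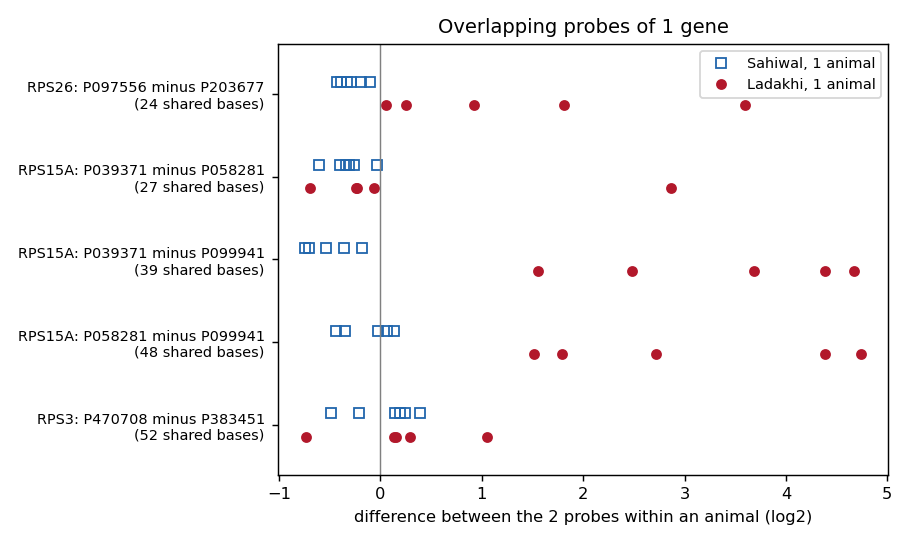
Difference in level between 2 overlapping probes of the same mRNA within each animal (log2, horizontal axis), for the 5 pairs measured without saturation, filled circles for Ladakhi and open squares for Sahiwal. In 3 pairs the Ladakhi points, from 0.05 to 4.74, all lie to the right of the Sahiwal points, and in the other 2 pairs the breeds overlap.

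In 12 of the 29 pairs the shared stretch was not identical. RPS25 and RPS23 are shown as examples, chosen after their values were seen, with the differing bases in capitals.
RPS25 A_73_P431821: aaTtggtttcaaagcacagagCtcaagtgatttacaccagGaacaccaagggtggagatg
RPS25 A_73_P066586: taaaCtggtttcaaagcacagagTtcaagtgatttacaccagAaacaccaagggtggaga
RPS23 A_73_P055346: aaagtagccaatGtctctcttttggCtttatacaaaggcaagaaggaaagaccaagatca
RPS23 A_73_P094301: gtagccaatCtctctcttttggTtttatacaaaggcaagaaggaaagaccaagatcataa

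The RPS25 probes share 58 bases with 3 substitutions, T3C, C22T and G41A, counted from 1 at the 5′ end of A_73_P431821 and read from it to A_73_P066586. Which of them matches the animals' own sequence is not given in the sources used here. On the 4 Sahiwal arrays where neither was saturated, A_73_P066586 minus A_73_P431821 had a median of -0.84 (range -2.68 to -0.67). In Ladakhi the median was -3.43 (range -7.84 to -0.76), and the ranges overlapped. The RPS23 probes share 57 bases with 2 substitutions, G13C and C26T, counted likewise from A_73_P055346. A_73_P094301 minus A_73_P055346 had a median of -2.14 (range -2.54 to -1.77) on 4 Sahiwal arrays and of -6.68 (range -7.24 to -3.55) in Ladakhi, where A_73_P094301 was above background on 2 arrays. The breeds did not overlap. The same comparison could be made for 15 pairs, among them the pairs tested above. The breeds were apart in 5 of the 15. Of the 7 pairs with a differing base 1 was apart, and the other 4 pairs apart differ in no base. The share over probe pairs of other genes is not given here. The 5 are the RPS15A and RPS26 pairs already found apart above, 1 pair of RPS21 and the RPS23 pair. For RPS26 A_73_P090721 and A_73_P031466, above background on 0 Ladakhi arrays, the comparison says nothing. No further test was made, since the Sahiwal arrays were chosen by saturation.

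The difference between breeds ran with the base composition of the probe. The 9 probes that rose hold 43.3% to 60% G and C (median 45%), and the 3 that fell hold 35.0% to 41.7% (median 38.3%). The 12 saturated probes called lower hold 28.3% to 43.3% (median 35.8%) and the 6 given as bounds for dim signal in Ladakhi 35.0% to 43.3% (median 35.8%). Across the 25 unsaturated probes, Pearson's r between G and C content and the difference was 0.66 and Spearman's rho 0.78. These are probes of 15 genes from the same arrays, some sharing bases, so the values are a description. Across all 3805 probes of the same kind the values were 0.22 and 0.24. At or below 40% G and C, 0 of 8 small-subunit probes rose and 2 fell, where 125 and 254 of 1221 probes of all genes did, and the median differences were -1.51 and -0.30. Above 45%, 4 of 5 rose and 0 fell, where 244 and 65 of 887 did, and the medians were 1.36 and 0.28. The part that base composition plays in the calls was not tested.

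**Figure D4:**
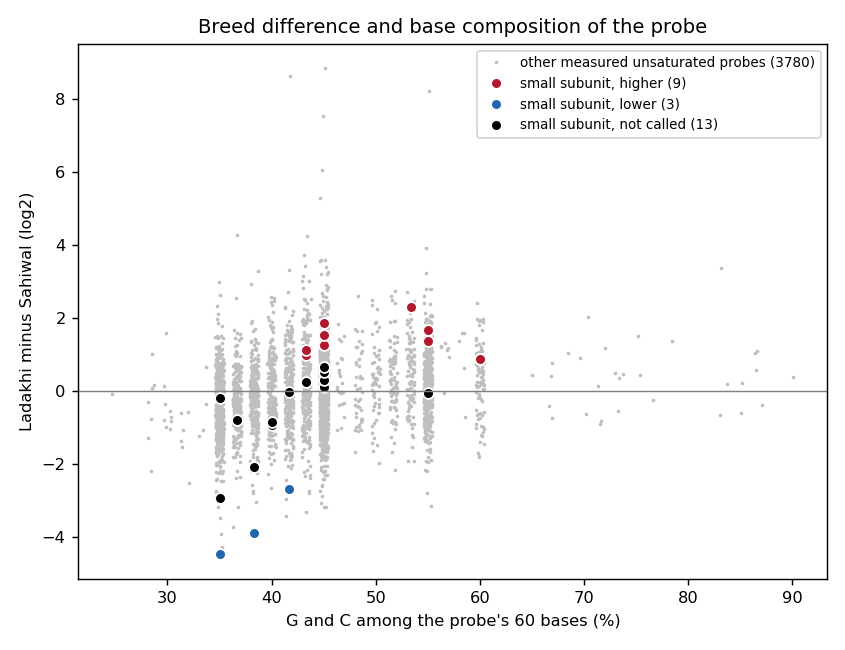
Difference between breeds (vertical axis, log2) against the percentage of G and C in the probe (horizontal axis, spread slightly sideways for the grey points), with 25 small-subunit probes in colour or black over the other 3780 measured unsaturated probes in grey. The small-subunit probes run from -4.48 at 35.0% to 2.31 at 53.3%.

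Position along the mRNA was set beside these values in the 5 genes with unsaturated probes that start more than 60 bases apart on the genome. From 5′ to 3′ the RPS26 probes stood at 1.68, 0.24, 1.85 and -2.92, so that the first lay 4.60 above the last. In RPS3 the first probe lay 0.35 above the last, while in RPS27, RPS4X and RPS9 it lay below, by -0.76, -0.13 and -0.38. Over 393 genes of any kind with such probes the median of the first minus the last was 0.45, and it was above 0 in 68.4%. Its part in the calls was not tested either.

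Ladakhi animals varied more among themselves than Sahiwal animals. The SD was larger in Ladakhi for 21 of the 25 probes, with medians of 0.58 in Ladakhi and 0.35 in Sahiwal, against 0.54 and 0.38 over the 3805 probes. The spread was not the same for all probes: among those that rose the Ladakhi SD ran from 0.28 to 1.10, and among those that fell from 1.33 to 2.60. Ladakhi animal 4 lay more than 2 below its breed's median on 4 probes, animal 5 on 2, and animal 3 on 1, and animals 1 and 2 on 0. Most of these values came from spots not above background. They were RPS24, RPS25 and RPS27 A_73_117806 in animal 4, RPS3A in animal 5 and RPS26 A_73_P485708 in animal 3. Each probe that fell held such a spot in Ladakhi. In Sahiwal, animal 6 stood out. It was the lowest of its breed on 17 of the 25 probes, or 68.0%, against 20.2% of the 3805 probes, and its median deviation from the breed's median was -0.47, against -0.03. Sahiwal animal 3 lay highest, on 10 probes, with a median deviation of 0.29. The same animals stood in the same places for the large subunit, where animal 6 was lowest on 38 of 63 probes (median deviation -0.41) and animal 3 had a median deviation of 0.23. The number of spots well above background in Sahiwal animal 6, 17869, lay within the range of the other Sahiwal animals.

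**Figure D5:**
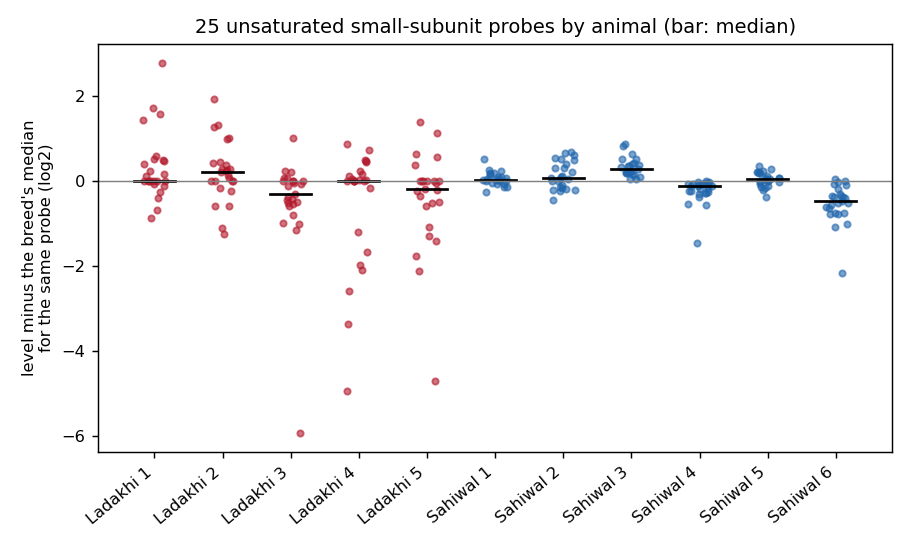
Level of each of the 25 unsaturated probes in an animal minus the median of its breed for that probe (log2, vertical axis), 1 column of points for each animal, with a bar at the median over probes. The bar of Sahiwal animal 6 lies at -0.47 and that of Sahiwal animal 3 at 0.29, and all but 1 of the points below -2 are in Ladakhi animals. Most of those Ladakhi points are spots not above background.

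The large subunit had a different balance of calls under the same rule. Of 189 probes of 51 genes, 79 were saturated and 63 were measured without saturation, of which 4 were higher and 14 lower (limma), with a median difference of -0.50. Over all 3805 measured unsaturated probes 18.2% were higher and 14% lower. RPL6 (A_73_P495203) had the largest change, -4.28 ± 0.76 (SE, limma adjusted p = 0.00087), although its 5 unsaturated probes ran from -4.28 to 0.33. RPL17 (A_73_P097531) followed at -3.43 ± 0.49 (SE, limma adjusted p = 0.000289), with probes from -3.43 to 1.59. The difference between the subunits was not tested, and the median G and C content was 43.3% for the small-subunit and 45% for the large-subunit probes.

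Genes that build, load or regulate the small subunit were measured to different extents. The counts called, here and in the next paragraph, stand beside 18.2% higher and 14% lower over all 3805 measured unsaturated probes. They were not tested against these shares. Of the factors that assemble it in the nucleolus, 17 probes of 8 genes were measured without saturation out of 101 probes of 42 genes, 1 higher and 1 lower, with a median difference of -0.02. The extremes were nucleolin (NCL, A_73_P105741), at 3.60 with its other probe at 0.08, and UTP14A (A_73_119275). UTP14A, a helper of 18S rRNA maturation, was at -2.04 ± 0.30 (SE, limma adjusted p = 0.000306). The NCL probe, the 1 counted as higher, had a Sahiwal mean of -6.73. That lay below -5.15, the mean over Ladakhi arrays of the lowest level well above background. It could pass the filter in Ladakhi only by lying higher there, so its rise is given without a test. Of the factors that bring the initiator tRNA and mRNA to it, 31 of 81 probes, of 19 of 28 genes, were measured without saturation, 4 higher and 4 lower, with a median of -0.22. EIF2S3, a subunit of the initiator tRNA carrier, was at -2.20 ± 0.59 (SE, limma adjusted p = 0.00866), and EIF3B, of the scaffold that binds the small subunit, at -2.11 ± 0.53 (SE, limma adjusted p = 0.00609).

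Of the partners and the mTOR pathway that act on these mRNAs and on RPS6, 10 of 46 probes, of 8 of 20 genes, were measured without saturation, 3 higher and 1 lower, with a median of 0.37. LARP1, the TOP mRNA-binding protein, had a mean level of -2.88 ± 0.26 (SD, n = 5) among Ladakhi animals, against -0.92 ± 0.35 (SD, n = 6) among Sahiwal animals, a difference of -1.96 ± 0.27 (SE, limma adjusted p = 0.000172). EIF4EBP1, the mTOR-controlled inhibitor of cap binding, lay at -1.71 ± 0.27 (SD, n = 5) and -3.61 ± 0.60 (SD, n = 6), a difference of 1.90 ± 0.32 (SE, limma adjusted p = 0.000637).

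Leukocyte markers were present in both breeds, at levels that differed between lists. PTPRC and CORO1A, found on all leukocytes, passed the same limit of 4 arrays in both breeds. Of the T cell markers 4 of 6 were so in Ladakhi (CD2, CD247, CD3D and CD3G, not CD3E or CD5) and 6 of 6 in Sahiwal, of the monocyte markers 3 of 5 (not CD14 or CD68) and 5 of 5, and of the NK cell markers 2 of 5 (NKG7 and GNLY) and 3 of 5. With the brightest probe of each marker summed on the linear scale relative to the array's percentile, monocyte markers gave 0.848 to 2.37 in Ladakhi, below the 2.40 to 6.36 of Sahiwal. Those of all leukocytes gave 0.885 to 1.80 and 1.56 to 2.68. NK markers ran from 1.97 to 3.35 and from 0.289 to 1.10. T cell markers (2.81 to 6.71 and 1.49 to 3.79) overlapped. Genes listed as markers of cells that a mononuclear preparation should leave out were also seen. The granulocyte list gave 1.81 to 4.97 in Ladakhi (2 of 6 genes detected), against 3.86 to 16.3 in Sahiwal (5 of 6). In Ladakhi only S100A8 and S100A12 were detected, not S100A9, MMP9, LTF or CXCR2, and in Sahiwal all but CXCR2. Whether these signals came from granulocytes was not tested. Platelet markers gave 1.72 to 2.33 (1 of 3) against 0.248 to 4.39 (3 of 3), and red cell markers 0.332 to 0.569 (1 of 5) against 0.0803 to 1.61 (3 of 5). The part of these markers' cells in the small-subunit differences was not tested, and in such bulk RNA fewer cells of a type cannot be told apart from less RNA per cell.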

How the data were processed

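Per the labels' protocols, RNA was extracted with Trizol, cleaned on columns with DNase, amplified from a T7 primer and labelled with Cy3. The deposited intensity values, per the file headers, are Feature Extraction's processed signals, which are background-subtracted and carry a surrogate where a spot is not above background. Ladakhi slides (4 and 1 arrays) were read on an Agilent G2600D scanner and extracted with version 12.0.1.1, Sahiwal slides (2 and 4 arrays) on an Axon GenePix scanner with version 9.5.3.1. Probe names, sequences and coordinates are the files' own (HGSC Btau_3.1), and exon annotation was not used here. The authors also deposited log2 values centred for each probe. Each column of that table matched another array of its breed than the one it is named for (r at least 0.9997 over probes above background on all arrays, both sides centred within breed), so it served only as an alternative for the breed comparison. Medians of its columns were 1.60 to 2.32 (Ladakhi) and -0.73 to 0.00 (Sahiwal), and its scaling between arrays is unknown.

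Control spots were left out, 294 outlier-marked spots over the 11 arrays were set missing, and spots of 1 probe were averaged. Log2 signals were scaled as the report describes, since 9.69% to 15.1% of the spots were detected in Ladakhi. The 17868 probes detected on 4 or more arrays in 1 of the breeds were fitted with limma 3.58.1 in R 4.3.3 (lmFit and eBayes, two-sided, Benjamini-Hochberg adjustment). Tested on simulated data with as many probes, it found 0, 2, 32 and 48 of 50 that were changed by 0.5, 1, 2 and 4 (log2), respectively, and made 4 false calls. In that simulation no other probe was changed, and the probes' SDs were reassigned at random among all fitted probes. In the data 32.2% of the 3805 measured unsaturated probes were called, so these counts do not give the power for the probes read here. The genes and lists were chosen with earlier results of these data known. Named with values were all measured unsaturated probes, with every animal's level for those called or of a gene whose such probes differ in sign, and the 2 genes with the largest difference in each other list. Alternatives covered background correction, scaling, filters, floor, outlier marks, saturation, slide and animal number as blocks, the variance prior, array weights, gene means, a test against a difference of 1, the value table and each array left out. Animals with the same number did not deviate together across breeds. The result of 1 list of cell markers is not reported here.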

Additional observations from a re-analysis of the deposited data

Results flagged for a closer look

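In 50 groups of values (25 probes in 2 breeds) 7 held an animal set far apart from the rest by Dixon's ratio, and chance alone marks about 1 group in 20. In Ladakhi, animal 5 lay apart for RPS3A A_73_101464, at -4.66 with its nearest neighbour at -0.35, and for RPS4X A_73_P107021, at 1.96 with its neighbour at 2.92. Animal 4 lay apart for RPS15A A_73_P058281, at -1.52 with its neighbour at 1.04, and for RPS3 A_73_P470708, at 0.54 with its neighbour at 1.62. Animal 3 lay apart for RPS26 A_73_P097556, at 2.65 with its neighbour at 3.19. In Sahiwal, animal 6 lay apart for RPS25 A_73_P066586, at -0.68 with its neighbour at 1.13, and for RPS13 A_73_P204392, at -0.85 with its neighbour at 0.10. In all 7 the animal lay below the others.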

How the results depend on the processing

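RPS19 A_73_110955, RPS24 A_73_P226957 and RPS15A A_73_P099941 kept their direction and their call under every alternative in which they were fitted (26, 25 and 25), RPS19 between 1.91 and 2.42, RPS24 between -4.96 and -3.71 and RPS15A between -4.39 and -3.54. The filter that asks for detection on every array leaves the last 2 out. None of the 12 called probes changed direction. The count of higher probes, 9, was 1 in a test against a difference of 1, 5 where the probes of each gene were averaged and 14 with partly saturated probes taken in. The count of lower probes, 3, was 5 with the percentile over all probes, with the authors' value table, with dim signals at the floor, with outlier spots kept and with slide as a random block, 7 with no filter, 8 after normexp, 14 with partly saturated probes and 0 with detection on every array. With detection on every array the median difference was 0.66, where that of all 2482 such probes was 0.17. With partly saturated probes it was -0.24. Over all 3805 probes the main setting called 694 higher and 531 lower. There no filter gave 798 and 680, normexp 969 and 843, slide as a random block 862 and 752, and the test against a difference of 1 gave 79 and 21. Leaving out each array in turn gave 8 to 10 higher probes, 2 to 5 lower and a median of 0.10 to 0.48. Leaving out probes with any saturated pixel, chosen after seeing the data, gave 7 higher and 2 lower. Over all probes of this kind the median moved by 0.22 under quantile normalization, -0.37 under cyclic loess and 0.30 under normexp, and those differences are given relative to it.

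The replicate block, which takes animals of the same number as pairs, gave 6 higher and 4 lower probes and a median of 0.10. The numbers do not pair the animals (correlations of -0.05 to 0.03), and no animal correlated best with its own number.

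Only differences near 0 changed sign. RPS27 A_73_117806 was at 0.073 under quantile normalization, 0.035 under normexp and 0.0061 with outlier spots kept, and from -0.36 to 0.48 with arrays left out. RPS15A A_73_P039371 was at 0.14 and RPS6 A_73_P212927 at 0.23 under cyclic loess, and RPSA A_73_P099926 at -0.22 under normexp. With arrays left out RPS6 ran from -0.19 to 0.18, RPSA from -0.10 to 0.29 and RPS26 A_73_P203677 from -0.10 to 0.75. The cause was not tested for any of these. Saturation in Sahiwal and dim signal in Ladakhi limit what can be read for the other 79 probes.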
